A study of Homo sapiens with 4 samples.

Results

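The regulatory elements of chromosome 18 were the 545 distinct enhancers and promoters that the authors' table of RNA contacts places there, out of 33948 in the genome. They were chosen by chromosome alone. Chromosome 18 was singled out because an earlier look at the same scores had shown that it listed more contacts in R320* than in WT cells. Its net gain is therefore given as a description with no test. The contacts came from GRID-seq, in which a linker joins RNA to neighbouring DNA inside fixed nuclei, so that each molecule names an RNA and a genomic place. The cells were K562, a human chronic myeloid leukaemia line, either with wild-type RUNX1 (WT, 2 libraries) or with the RUNX1 R320* genotype (2 libraries), where the asterisk marks a stop codon. All 4 libraries were fixed the same way, with 2 mM DSG for 45 minutes and 3% formaldehyde for 10 minutes. The labels do not say whether the R320* cells are 1 clone, whether both alleles carry the change or whether libraries of a genotype were separate cultures. The authors gave 1 score per contact and genotype, so no value has a spread over libraries and no genotype difference has a test. As a check of the cell label, 8 of 16 genes fixed as K562 or erythroid markers were listed as RNAs, among them HBG2, HBE1, BCR and ABL1. GATA1, KLF1 and TAL1 had 0 contacts in both genotypes, against 2 of 6 lymphoid markers and 1 of 5 non-blood markers listed.

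RUNX1 is a transcription factor that directs blood stem cells and megakaryocytes, and its C-terminal part holds the region that activates and represses target genes. RNA still being transcribed lies close to its own gene, so most of what GRID-seq finds on a chromosome is the RNA of that same chromosome, denser near the gene. Chromosome 18 is a gene-poor chromosome that lies near the edge of the nucleus in many cell types. Among its genes are the apoptosis inhibitor BCL2, the TGF-beta signal carriers SMAD2, SMAD4 and SMAD7, and the Src-family kinase YES1.

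A contact is called listed in a genotype when its score there is above 0. The lowest such score was 1.20001, and a contact not listed in a genotype has a score of 0 there. What that 0 stands for is not stated, so it is not read as absence of the contact. Of the 545 elements, 401 were enhancers (73.6%, against 70.3% in the genome) with a median length of 1260 bp, and 144 were promoters with a median of 2657 bp. They formed 1410 contacts with 118 RNAs. Of these RNAs, 53 came from chromosome 18 itself (47 protein-coding, 6 long noncoding) and 65 from other chromosomes. The elements are thinly visited: the median element met 2 RNAs, 200 elements met 1 RNA, and the most visited met 11.

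Several promoters stand in the elements that gained most RNAs in R320*, and the 250 bases before the start of each are shown so that the loci behind the gain can be read. They come from RefSeq (GRCh38.p14, the same coordinates as hg38). Each stands in an element named for gain, except that of CEP192, which stands in an element that lost RNAs. Capitals mark the RUNX core TGTGGT and the GC box GGGCGG on either strand. The DLGAP1-AS1 window lies in the element that the table names as the DLGAP1 promoter. TGIF1 has 7 RefSeq starts inside its element, and a pair is shown.

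YES1 promoter (chr18:812243-812492, minus strand): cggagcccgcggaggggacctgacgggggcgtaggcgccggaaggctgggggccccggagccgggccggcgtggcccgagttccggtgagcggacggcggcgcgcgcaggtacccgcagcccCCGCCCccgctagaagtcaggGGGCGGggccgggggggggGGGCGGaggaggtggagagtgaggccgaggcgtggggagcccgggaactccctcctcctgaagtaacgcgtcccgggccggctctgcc
DLGAP1-AS1 promoter (chr18:3593864-3594113, plus strand): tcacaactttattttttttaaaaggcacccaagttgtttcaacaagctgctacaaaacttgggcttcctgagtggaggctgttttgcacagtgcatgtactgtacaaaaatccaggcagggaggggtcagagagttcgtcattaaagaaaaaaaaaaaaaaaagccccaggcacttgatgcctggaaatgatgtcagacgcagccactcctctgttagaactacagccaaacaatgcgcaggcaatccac
CLUL1 promoter (chr18:596738-596987, plus strand): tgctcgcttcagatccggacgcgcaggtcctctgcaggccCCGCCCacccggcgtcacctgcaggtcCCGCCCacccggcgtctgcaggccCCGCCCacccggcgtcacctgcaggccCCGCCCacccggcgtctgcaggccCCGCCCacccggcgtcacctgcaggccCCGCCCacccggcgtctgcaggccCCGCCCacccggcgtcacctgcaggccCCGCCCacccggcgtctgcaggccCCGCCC
TGIF1 promoter, nearest to the element centre (chr18:3449318-3449567, plus strand): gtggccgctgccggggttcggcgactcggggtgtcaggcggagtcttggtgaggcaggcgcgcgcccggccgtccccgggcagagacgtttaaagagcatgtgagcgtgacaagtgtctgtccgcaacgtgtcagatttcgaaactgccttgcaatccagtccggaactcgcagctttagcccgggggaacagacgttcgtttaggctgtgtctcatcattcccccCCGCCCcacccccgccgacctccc
TGIF1 promoter, with a RUNX core (chr18:3451343-3451592, plus strand): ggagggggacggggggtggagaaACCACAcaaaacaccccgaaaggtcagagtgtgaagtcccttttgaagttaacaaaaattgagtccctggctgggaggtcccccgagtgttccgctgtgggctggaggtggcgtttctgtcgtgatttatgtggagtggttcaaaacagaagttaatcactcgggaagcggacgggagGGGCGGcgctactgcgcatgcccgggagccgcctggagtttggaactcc
CEP192 promoter (chr18:12991112-12991361, plus strand): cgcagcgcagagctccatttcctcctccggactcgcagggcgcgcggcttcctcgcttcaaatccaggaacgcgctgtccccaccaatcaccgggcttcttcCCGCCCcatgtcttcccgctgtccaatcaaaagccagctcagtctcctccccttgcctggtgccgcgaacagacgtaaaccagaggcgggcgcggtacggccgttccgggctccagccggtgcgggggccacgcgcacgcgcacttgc

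Across all 35116 RefSeq promoter entries, 11% held the RUNX core in this 250-base window and 42.6% the GC box. Of the 171 entries that lay wholly in a chromosome 18 element, 12 (7.02%) held the RUNX core and 71.3% the GC box. The RUNX core stood in 8 of 98 entries in elements with a net gain, 0 of 20 in elements with a net loss and 4 of 53 in elements with no net change. Entries of 1 gene overlap and are not independent. The YES1 window held 0 RUNX cores and 3 GC boxes, and the CLUL1 window held 9 GC boxes in a short repeat. The DLGAP1-AS1 window differed from these in its base composition, with 44% G or C and 0 of either motif. A match describes letters only.

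Chromosome 18 listed more contacts in R320*. WT cells listed 793 of the 1410 and R320* cells 1193. Both genotypes shared 576 (40.9%), R320* alone had 617 (43.8%) and WT alone had 217 (15.4%). In the whole table these parts were 45.2% shared, 28.5% in R320* only and 26.3% in WT only. The net balance, R320*-only minus WT-only contacts as a percent of all, was 28.4% on chromosome 18 and 2.20% over the genome. Gain and loss below refer to this difference in listed numbers, which no test supports.

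Each kind of contact had more in R320* only than in WT only, by different amounts. The table calls a contact local at the RNA's own gene, cis elsewhere on the same chromosome and trans on another one. Of 98 local contacts, 26 were in R320* only and 2 in WT only, with 71.4% shared. The genome had 8.65% of local contacts in R320* only, 10.3% in WT only and 81.1% shared. Of the 26, 23 came from RNAs listed in R320* alone anywhere in the genome. For RNAs listed in both genotypes, 3 local contacts were of R320* and 1 of WT alone, with 94.6% shared and a net balance of 2.70%. Of 1131 cis contacts, 484 (42.8%) were in R320* only, 143 (12.6%) in WT only and 504 (44.6%) shared. The genome had 26.4%, 22.1% and 51.4%. Of 181 trans contacts, 107 (59.1%) were in R320* only, 72 (39.8%) in WT only and 2 shared. The genome had 41.5%, 47% and 11.5%. On local, cis and trans contacts alike, chromosome 18 thus had more than the genome's part in R320* only and less in WT only.

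Among the 23 chromosomes, chromosome 18 had the highest net balance in cis (30.2%) and in trans (19.3%). The next in cis were chromosome 20 (22.3%) and chromosome 21 (18.3%), and in trans chromosome 13 (13.6%) and chromosome 8 (6.33%). With RNAs listed in both genotypes only, chromosome 18 still stood first, at 18.6% in cis against 16.2% on chromosome 21, and at 30.1% in trans against 24.2% on chromosome 8. The distance from chromosome 21 in cis was small in that comparison, and no test of it could be had. Without the first 5 Mb of the chromosome the cis value was 21.0%, below that of chromosome 20, and the trans value was 10.1%, below that of chromosome 13. The trans value was also lower at promoters alone (10%) and in 1 of the 2 blocks in which the table lists its elements (6.25%).

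**Figure D1:**
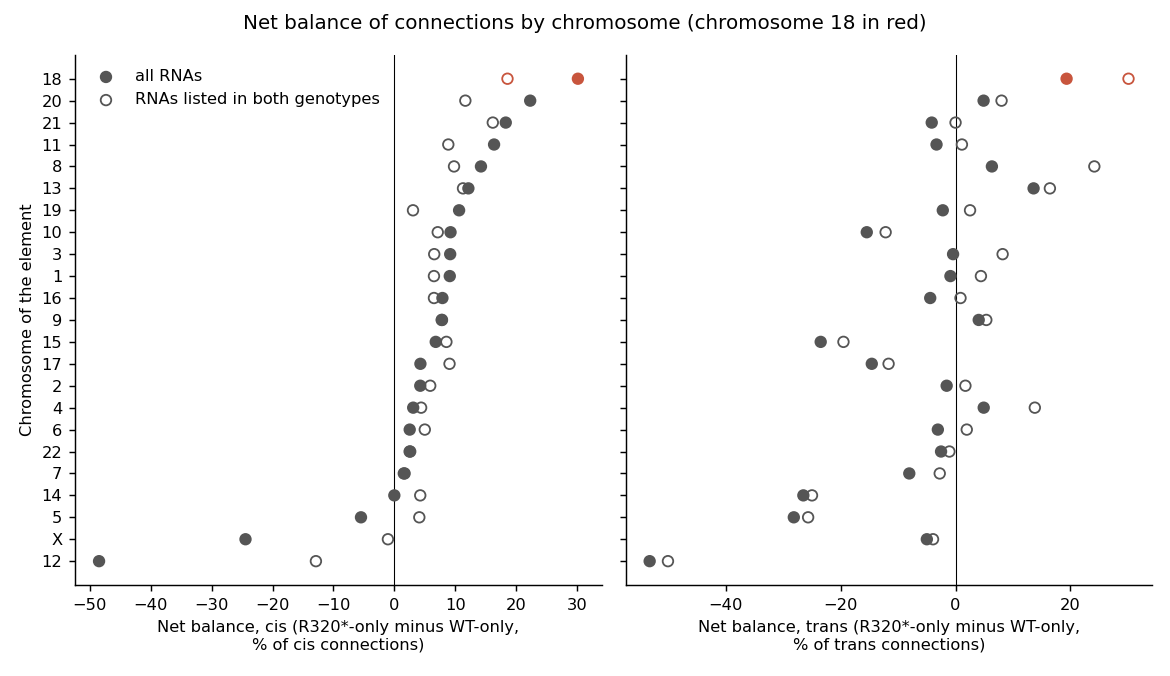
Net balance of contacts (R320*-only minus WT-only, percent of contacts of that kind) for elements on each of 23 chromosomes, cis on the left and trans on the right. Filled points use all RNAs and open points RNAs listed in both genotypes; chromosome 18 (red) is the rightmost of each set, at 30.2% and 18.6% in cis and 19.3% and 30.1% in trans.

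Along the chromosome the gain was concentrated at the end of the short arm. The elements fall on both sides of an interval of 6.89 Mb without any (14132577 to 21021043), which holds the centromere. On the short-arm side, 202 elements listed 385 contacts in WT and 650 in R320*, a net balance of 36.1%. On the long-arm side, 343 elements listed 408 and 543, a net balance of 20%. The R320*-only RNAs described below gave 156 contacts on the short arm and 67 on the long arm. With RNAs listed in both genotypes the balance was 19.7% on the short arm and 18.8% on the long arm, and in cis the order turned, with 16.1% and 21.1%. Net gains were seen at 139 short-arm elements (68.8%) and net losses at 30. On the long arm, 151 elements (44%) gained and 74 lost. Over the genome, 36.6% of elements had a net gain and 32.4% a net loss.

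In windows of 5 Mb, 14 of the 16 with elements had a net gain. The first window (0 to 5 Mb) held 77 elements, 14.1% of those on the chromosome, and 21.1% of the chromosome's contacts. It listed 96 contacts in WT and 282 in R320*: R320* alone had 201 of them and WT alone 15. That net of 186 contacts was 46.5% of the 400 of the chromosome, and with the second window (173 in WT, 248 in R320*) the part was 65.2%. Much of the net of the first window came from RNAs listed in R320* only. LINC00470 had 42 contacts there, AP000829.1 30, LPIN2 22, USP14 19 and THOC1 12. Among RNAs listed in both genotypes, YES1 had 30 in WT and 48 in R320* in that window. The next largest net gains were at 20 to 25 Mb (61 in WT, 108 in R320*) and at 35 to 40 Mb (67 and 105). The third window, at the inner end of the short arm, was near balance, with 116 and 120 contacts. The gain thus covered most of the chromosome and was uneven even within an arm.

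A single stretch went the other way to a large extent. From 70 to 75 Mb, 19 elements listed 22 contacts in WT and 2 in R320*, with 0 shared. AC079062.1, a noncoding RNA listed in WT only, made 19 of the 22. The adjoining window from 65 to 70 Mb held 2 elements, with 3 contacts in WT and 1 in R320*, too few to read.

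**Figure D2:**
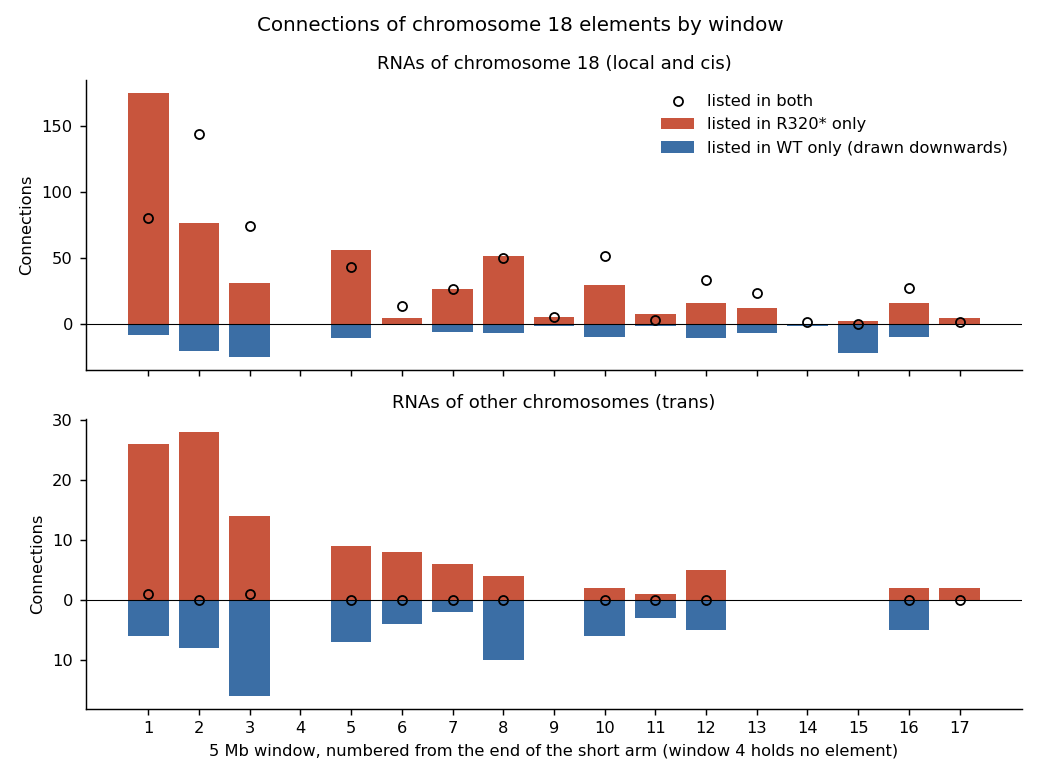
Contacts of chromosome 18 elements in 5 Mb windows from the short-arm end, for RNAs of chromosome 18 (top) and of other chromosomes (bottom). Bars upward are contacts in R320* only, bars downward in WT only and circles those in both; the first window has the tallest same-chromosome bar, 175 in R320* only against 9 in WT only, and windows 14 and 15 are the only same-chromosome ones with more in WT only.

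The RNAs behind the cis gain fell into a pair of sets. The first set was 13 RNAs of chromosome 18 that were listed in R320* only, at any element of the genome. They were 24.5% of the 53, against 8.61% of all RNAs in the table. A single RNA of the 53, AC079062.1, was in WT only, against 10.4% in the table. These 13 gave 223 contacts on the chromosome, all in R320* only by construction, or 43.7% of the 510 local and cis contacts in R320* only. The second set was 39 RNAs listed in both genotypes, which gave 287 in R320* only and 117 in WT only.

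Of the RNAs listed in R320* only, the noncoding LINC00470 (chromosome 18, 1268311 to 1359629) had the most contacts, 46 in R320* and 0 in WT. AP000829.1, another noncoding RNA, had 32 and 0, and 27 of its 32 elements were also met by LINC00470. The contacts of the pair are therefore not independent. LPIN2, a phosphatidate phosphatase of lipid synthesis, had 22 and 0. MTCL1, a microtubule crosslinking factor, had 22 and 0. USP14, a deubiquitinase of the proteasome, had 21 and 0, and its neighbour THOC1, a subunit of the THO complex in mRNA export, had 15 and 0. The gene models of USP14 (158557 to 214629) and THOC1 (214520 to 268047) overlap at their ends, and 11 of the 15 elements of THOC1 were also met by USP14.

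On the long arm the set held RBBP8, a DNA end resection factor, with 18 contacts in R320* and 0 in WT. TPGS2, of the tubulin polyglutamylase complex, had 16 and 0. DTNA, a dystrobrevin, had 14 and 0, and the spliceosome protein gene TXNL4A had 11 and 0. The remaining members CABLES1, DLGAP1 and AP005230.1 had 3, 2 and 1 contacts in R320*. All of these RNAs went from no listed contact to a group of contacts that included the RNA's own gene.

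The scores of these RNAs at their own genes covered a wide range. The highest local score of each of the 13 lay between 1.5 and 2.80 in R320*, with a median of 2.24. It was lowest for AP000829.1, and LINC00470 had 1.62. For the 39 RNAs of both genotypes it had a median of 2.12 in R320* and 2.06 in WT. THOC1 gave the highest score of any contact in R320* only, 3.63 at an enhancer inside USP14 (206499 to 206822), which lies 7698 bases from THOC1. The RNA level of these genes was not measured here, and its part in their listing was not tested.

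Among the 39 RNAs in both genotypes, 28 had more contacts on chromosome 18 in R320*, 7 had fewer and 4 the same number. That is 71.8%, beside 58.1% of the 2131 RNAs in the genome with same-chromosome contacts in both genotypes. The median log2 ratio of contact numbers was 0.32, against 0.09 in the genome. YES1 RNA met 30 elements in WT and 48 in R320*, with 28 shared. Its highest local score was 2.31 in WT and 2.28 in R320*. VAPA, an anchor protein of the endoplasmic reticulum, had 37 and 53, and NDUFV2, a subunit of respiratory complex I, had 7 and 21. All 22 elements of NDUFV2 were also met by the noncoding AP005263.1 of the same locus, which had 37 and 39, a smaller difference at the same locus.

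Other RNAs with more contacts in R320* were spread over the chromosome. ELP2, of the Elongator complex, had 12 contacts in WT and 25 in R320*. The transcription factor gene TCF4 had 17 and 29, and the vesicle tethering gene TRAPPC8 had 23 and 34. GNAL, a G protein subunit, had 3 and 14. TAF4B, of the TFIID complex, had 11 and 20, and the Notch pathway ubiquitin ligase MIB1 had 27 and 35. Among the RNAs with most shared contacts the net number ranged from -2 for RPRD1A (36 shared) to 16 for VAPA (33 shared). ANKRD12 had 47 and 51 with 45 shared, and the phosphatase subunit gene PPP4R1 had 33 and 42 with 29 shared. ENOSF1, which lies beside TYMS, had 33 and 40, also with 29 shared.

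Fewer RNAs lost contacts. PTPN2, a tyrosine phosphatase that damps JAK and STAT signalling, met 19 elements in WT and 6 in R320*, and all 6 were among the 19. Its highest local score was 2.06 in WT and 2.09 in R320*. RAB31, a small GTPase of vesicle traffic, had 19 and 12, again with all 12 among the 19. All 19 of its elements were also met by VAPA, whose own number was higher in R320*. CEP192, a centrosome protein gene near PTPN2, had 23 and 20. RPRD1A, which binds the tail of RNA polymerase II, had 42 and 40, and BCL2 17 and 15. SMAD2 was near balance, with 24 and 25. Neighbouring RNAs on the short arm therefore went in opposite directions.

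**Figure D3:**
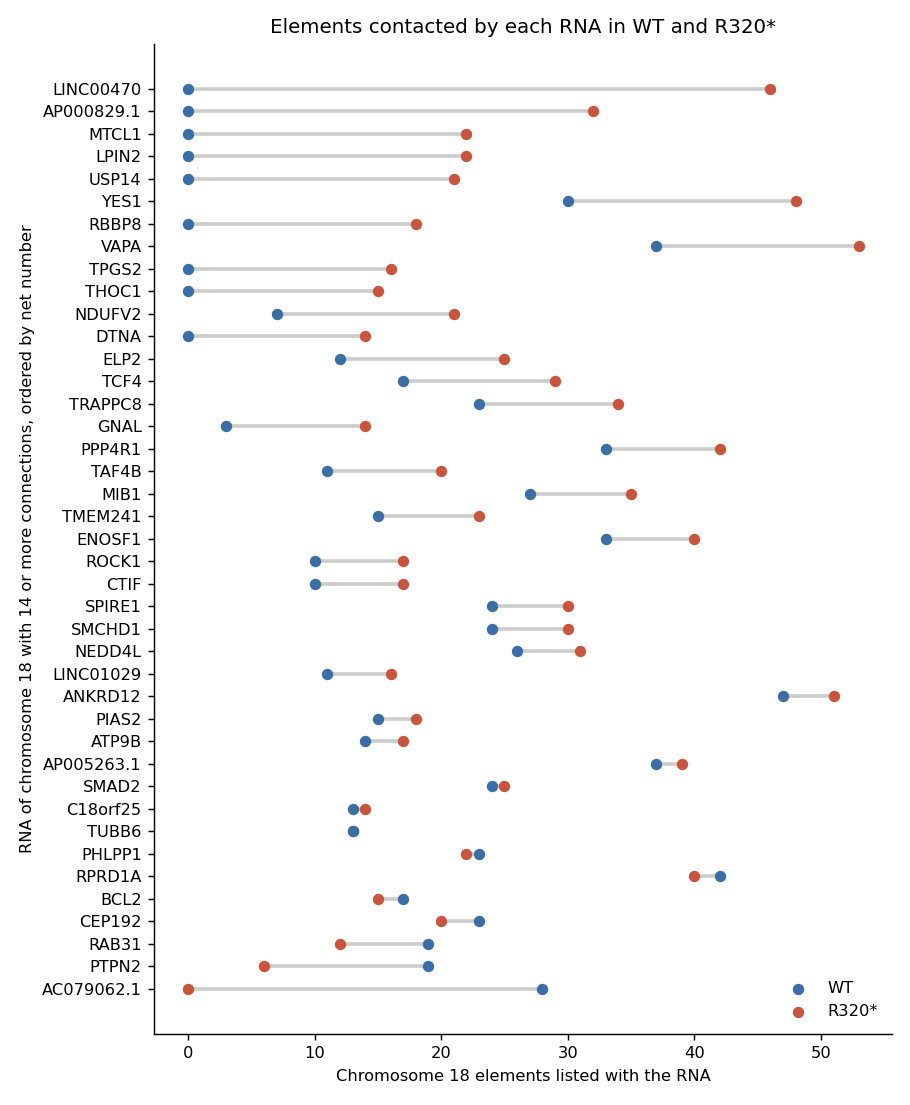
Number of chromosome 18 elements listed with each RNA of the chromosome in WT (blue) and R320* (red), for RNAs with 14 or more contacts, ordered by net number. RNAs at the top such as LINC00470 (0 and 46) have no WT contact, and the bottom 7 rows, from PHLPP1 to AC079062.1 (28 and 0), have fewer contacts in R320*.

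Distance from the gene could be given for 1115 of the 1229 same-chromosome contacts, from 48 RNAs, measured from the nearest end of the gene. The remaining 114 belonged to 5 RNAs without a RefSeq position. The shared part fell from 68.7% of 284 contacts under 100 kb to 49.5% of 580 up to 1 Mb, 26.2% of 195 from 1 to 5 Mb and 7.14% of 56 beyond 5 Mb. With the 13 RNAs of R320* left aside, contacts under 100 kb were 85.9% shared, and the rest were 24 of R320* and 8 of WT alone. At 1 to 5 Mb the same RNAs had 90 in R320* only and 27 in WT only, a net balance of 37.5%, against 7.05% under 100 kb and 16.9% from 100 kb to 1 Mb. Beyond 5 Mb there were 23 and 18. For RNAs of both genotypes the net balance in percent was thus highest from 1 to 5 Mb. In number the net gain was larger from 100 kb to 1 Mb, at 82 contacts against 63 from 1 to 5 Mb.

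The farthest listed element of an RNA was also compared. Over 37 RNAs of both genotypes with a position, its median distance was 1.14 Mb in WT and 2.44 Mb in R320*. It was farther in R320* for 21 RNAs, farther in WT for 7 and the same for 9. The reach of VAPA was 2.25 and 6.66 Mb, that of PPP4R1 0.947 and 6.28 Mb, and that of ENOSF1 2.14 and 9.17 Mb. BCL2 went the other way, with 28 Mb in WT and 7.14 Mb in R320*, as did SMAD2, with 14.9 and 1.63 Mb. A reach rests on 1 contact, and an RNA with more contacts has more ways to reach far. Among RNAs with a position, contacts across the centromere numbered 7 from short-arm RNAs to the long arm and 8 the other way, with 2 shared. AP000829.1, which has no RefSeq position and is not in that count, met 31 short-arm elements and 1 long-arm enhancer at RMC1 (23527791 to 23530659).

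**Figure D4:**
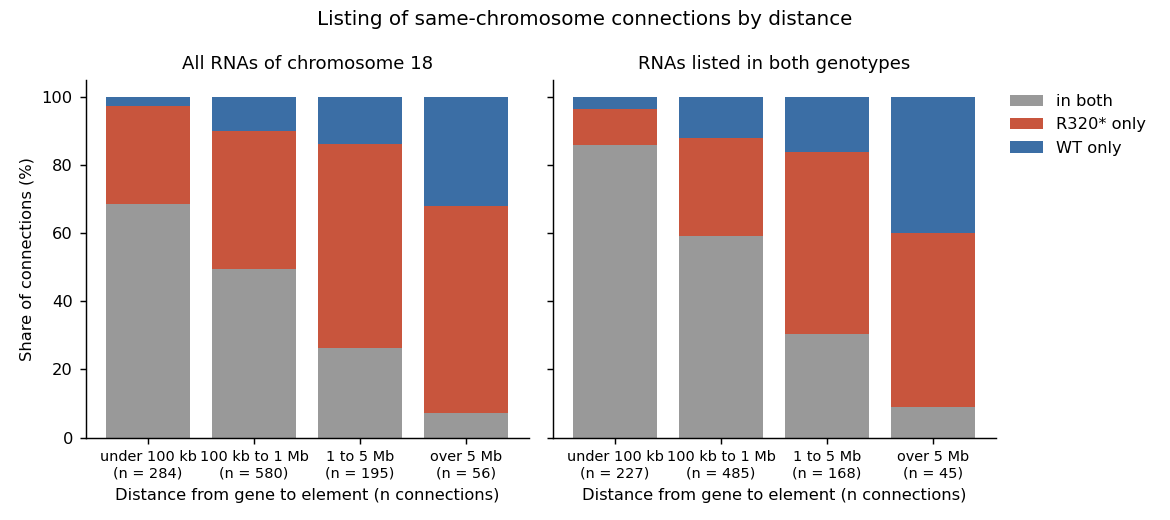
Share of same-chromosome contacts in both genotypes (grey), in R320* only (red) and in WT only (blue) by distance from gene to element, for all RNAs with a position (left) and those listed in both genotypes (right). On the right the grey share falls from 85.9% to 8.89%, and the red share is largest between 1 and 5 Mb, at 53.6%.

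Contacts shared by both genotypes had slightly higher scores in R320*. Their medians were 1.69 in WT and 1.79 in R320*, and the median difference was 0.0783 (SD 0.220 over 576 contacts). Scores were higher in R320* for 402 of the 576 (69.8%), against 58.6% in the genome, where the median difference was 0.0394. Local contacts had a median difference of 0.0590 (SD 0.0808, 70 contacts), with 56 higher in R320*. On the long arm the median was 0.102 (SD 0.209) and on the short arm 0.0491 (SD 0.223). The arm with the larger gain in number had the smaller gain in score. The SDs are those of single contacts, which are not independent, and each median difference is below its SD.

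Large single differences were few. A difference of 1 unit or more was seen at 0 contacts in the direction of R320* and at 1 in the direction of WT, where 0.0998% and 0.0749% of shared contacts in the genome passed it. That contact joined SMCHD1, a chromatin protein of X inactivation, to an enhancer 21501 bases away (2826518 to 2826986), with 2.33 in WT and 1.29 in R320*. YES1 had 1.87 and 1.24 at an enhancer inside COLEC12 (321647 to 324640), although its number of contacts was higher in R320*. VAPA had 1.95 and 1.32 at an enhancer near AP005264.4 (12208674 to 12209358). In the direction of R320*, RPRD1A had 1.34 and 2.17 at an enhancer near AC015967.1 (35174182 to 35175082). PIAS2, a SUMO ligase gene, had 1.42 and 2.21 at an enhancer in HDHD2 (47143616 to 47145268). TRAPPC8 had 1.5 and 2.27 at an enhancer in DSCAS (31104838 to 31105081).

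BCL2 and PHLPP1, a phosphatase that acts on AKT, met each other's loci with opposite changes. BCL2 RNA had 1.38 in WT and 2.16 in R320* at an enhancer inside PHLPP1 (62850348 to 62851514). PHLPP1 RNA had 2.09 and 1.51 at an enhancer inside BCL2 (63205823 to 63206171). The genes lie side by side, and each value is a single contact.

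Scores of contacts listed in 1 genotype lay near the minimum. The median was 1.5 for those in R320* only and 1.44 for those in WT only, and 50.4% and 58.5% were under 1.5. In the genome the medians were 1.52 and 1.53, and 47.3% and 46.5% were under 1.5. A score of 2 or more was reached by 76 of 617 contacts in R320* only and by 21 of 217 in WT only. In the genome it was reached by 5283 of 32903 and by 4882 of 30365. Of the 76, 52 came from the 13 RNAs of R320*. For RNAs of both genotypes the numbers at 2 or more were 24 and 12. Many of the differences in listing are therefore between a low score in 1 genotype and no listing in the other.

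Single elements gained more often than they lost. Of 212 elements listed in both genotypes with a mean of 2 or more RNAs, 84 (39.6%) had an R320* number of RNAs 2-fold or more above that of WT, and 7 (3.30%) had one 2-fold or more below, against 12.4% and 9.6% in the genome. A further 111 elements were listed in R320* only and 58 in WT only. These were 20.4% and 10.6% of the 545 elements, against 11.5% and 12% of elements in the genome. On the short arm 54 of 115 elements met at least 2-fold more, and on the long arm 30 of 97. The net balance was 27.9% at enhancers and 29.4% at promoters. Since 13 RNAs account for a large part of the gain and visit neighbouring elements, the elements are not independent.

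The largest net gain was at the promoter of DLGAP1, a synaptic scaffold gene (3591512 to 3598084), which met 2 RNAs in WT and 10 in R320*. SMCHD1 and YES1 were shared, and the 8 others included LINC00470, LPIN2, DLGAP1 itself and the paraspeckle RNA NEAT1. An enhancer at TGIF1, a repressor of TGF-beta signalling (3442505 to 3456454), met 2 and 9. Its R320*-only visitors included YES1, VAPA and, in trans, RUNX1 RNA, and AC004936.1 met it in WT only. The YES1 promoter (807629 to 815224) met 3 and 9, and 5 of its 6 added visitors were RNAs of chromosome 18 that were listed in R320* only: LINC00470, AP000829.1, LPIN2, THOC1 and USP14. The CLUL1 promoter (596180 to 597957) met 2 and 7. An enhancer of 21449 bp near AP005899.2 (9004997 to 9026445) met 4 and 11 and was the most visited of the chromosome. These 5 elements all lie on the short arm.

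Other heavily visited elements changed little in their number of RNAs, though some of the RNAs differed. The ANKRD12 promoter (9134929 to 9138733) met 7 and 8 RNAs, an NDUFV2 enhancer (9109983 to 9114838) 6 and 8 and the NDUFV2 promoter (9101487 to 9107384) 6 and 7. All 3 met the same 5 shared RNAs, ANKRD12, AP005263.1, NDUFV2, PPP4R1 and VAPA. The ANKRD12 promoter also met 3 RNAs in R320* only and 2 in WT only. These numbers were 3 and 1 at the NDUFV2 enhancer and 2 and 1 at the NDUFV2 promoter. Losses were smaller. A promoter of AP005264.1 (12287631 to 12288710) met 5 and 2, and an enhancer of the same gene (12295561 to 12297026) 7 and 5. The CEP192 promoter (12989413 to 12993800) met 5 and 3. An enhancer at AC100775.1 (57140695 to 57144001) met BCL2, NEDD4L and TCF4 in WT and 0 RNAs in R320*.

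**Figure D5:**
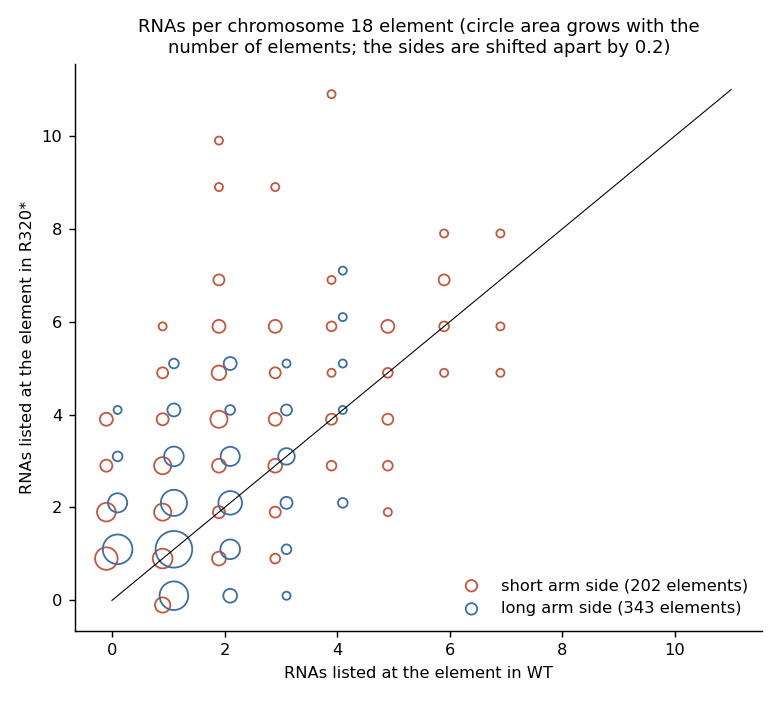
RNAs listed per chromosome 18 element in WT (x) and R320* (y), with circle area growing with the number of elements, for the short arm (red, 202 elements) and long arm (blue, 343 elements), and the line of equal numbers. Most circles far above the line are red, up to 4 and 11 RNAs, and circles below the line stay near it.

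Grouped by the nearest gene of the element, the gain was uneven between lists, and list counts are set beside those of all 545 elements (290 with net gain, 104 with net loss, median net 1). Elements of the cell division and chromosome list had 17 gains and 6 losses among 27, with a median net of 1. TYMS, the thymidylate synthase gene, had 4 contacts in WT and 13 in R320* at its 2 elements. SMCHD1 elements had 6 and 13, NDC80 (a kinetochore gene) 3 and 8, RBBP8 3 and 9, and CEP192 10 and 7. MAPRE2, which binds microtubule ends, was equal at 11 and 11. Of the members with higher numbers in R320*, TYMS, SMCHD1 and NDC80 lie in the first 5 Mb of the chromosome, where most elements gained. RBBP8 and ADNP2, which had 1 and 5 contacts, lie on the long arm.

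Elements of TGF-beta and SMAD genes had 7 gains and 1 loss among 11, with a median net of 1. TGIF1 had 2 and 9 contacts, SMAD7 5 and 10, SMAD4 0 and 2, and SMAD2 6 and 6. The survival, signalling and leukaemia list had 17 gains and 10 losses among 44 elements, with a median net of 0. YES1 elements had 6 and 16 contacts, GATA6 1 and 5, PIK3C3 3 and 6, PMAIP1 6 and 4, PHLPP1 9 and 7, and BCL2 4 and 4. Secretory and lysosome genes had 7 gains and 0 losses among 11 elements, led by the cholesterol transporter NPC1 with 1 and 8. The haem and red cell list had 3 elements: ferrochelatase (FECH) had 1 and 2 contacts and CYB5A 2 and 0. The non-blood list had 3 gains and 1 loss among 7 elements of 5 of its 20 genes, such as desmoglein DSG2 with 3 and 3.

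RNAs from other chromosomes met chromosome 18 in different contacts in each genotype. Of 65 such RNAs, 36 had more contacts in R320*, 26 fewer and 3 the same number, and 26 had a single contact. No genome-wide share of such RNAs stands beside these counts, so they are not read as differing from the genome. The 2 shared contacts were PPP6R2 at the ZNF519 promoter (14131588 to 14132577), with 4 in WT and 3.79 in R320*, and LINC02109 at a DLGAP1 enhancer (3631789 to 3632646), with 1.79 and 1.5. Over all RNAs the trans gain lay on the short arm, with 32 contacts in WT and 70 in R320*. The long arm had 42 and 39. With RNAs listed in both genotypes, the short arm had 28 and 70 and the long arm 31 and 39.

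NEAT1 had 1 contact in WT and 10 in R320*, 9 of the 10 on the short arm, with scores from 1.22 to 1.97. In the whole table NEAT1 had 803 and 1136. AC097528.1 had 1 and 7, and AC004936.1 2 and 6. ANK1, the red cell ankyrin, had 0 and 4, at neighbouring elements of NDUFV2 and ANKRD12 with scores from 1.55 to 2.46. RUNX1 RNA had 0 and 4: the TGIF1 enhancer (1.51), the enhancer near AP005899.2 (1.49) and a promoter and an enhancer at TMEM241 (1.55 and 2.20). The TMEM241 pair are neighbouring elements, so the 4 contacts are not all separate. These RNAs also had more contacts in R320* over the whole table. RUNX1 had 16 in WT and 30 in R320*, ANK1 33 and 42, AC097528.1 509 and 573, and AC004936.1 415 and 557.

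RNAs of chromosome 11 had 3 trans contacts in WT and 25 in R320*, those of chromosome 7 had 13 and 14, and those of chromosome 5 had 16 and 10. Besides those of NEAT1, 12 of the 25 came from the globin cluster. HBE1, HBG2, OR51B5 and AC104389.4 each met the same 3 enhancers in R320* only, near AP005899.2 (9004997 to 9026445), AC091021.1 (25989879 to 25991360) and ATP8B1 (57664870 to 57668534). Their scores lay between 1.40 and 1.64. In the whole table HBE1 had 152 contacts in WT and 192 in R320*, HBG2 154 and 196, OR51B5 155 and 188, and AC104389.4 143 and 193. The 4 RNAs come from 1 locus, HBG2 is nearly identical to HBG1, and their contacts cannot be counted as separate. With the cluster counted as 1 RNA the trans balance was 98 against 72.

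Losses in trans had several sources. NYAP2 had 6 contacts in WT and AC099520.1 had 5, and both RNAs were listed in WT only in the whole table (404 and 337 contacts). AC005208.1 had 5 and 0, AC004949.1 4 and 0, and RAD51B, a gene of recombination repair, 5 and 1, although each of these was listed elsewhere in R320*. LMAN1, a cargo receptor whose gene lies on chromosome 18, was the only one of 54 RNAs of the chromosome with 0 contacts on it. LMAN1 RNA had 696 contacts on other chromosomes, 540 listed in WT and 461 in R320*. The element nearest its gene met 1 RNA, in R320* only.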

How the data were processed

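GRID-seq contacts of K562 cells were taken from 1 table deposited by the authors, with 1 score per contact for each genotype. The tools used upstream were cutadapt 1.12, BWA and bedtools, with hg38 as the build, per the submitters' processing notes. How scores were computed, their scale and how the 2 libraries per genotype were pooled are not stated in these sources. Sequencing depth is unknown and no intervals are given. Contacts were counted with pandas 2.3.3, since numbers of listed contacts have a true zero and scores do not. The table holds a pair of separately listed blocks of elements, analysed together. Neighbouring contacts of 1 RNA are not independent. The start of an element was taken as 0-based and is printed 1-based. Gene positions came from RefSeq (GRCh38.p14). Counting was tested on simulated data. Named RNAs were those with the largest net numbers (8 up and 6 down in cis, 5 each way in trans) and the 6 with most shared contacts. Named elements were 5 up, 4 down and 4 most visited, and named single contacts 4 each way, 1 per RNA. RNAs and loci outside this rule were named after their values were seen. The chromosome, members and lists were chosen with earlier results of these data known.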

Additional observations from a re-analysis of the deposited data

How the results depend on the processing

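No paired analysis was possible because the table gives 1 score per genotype and carries no replicate number, and leaving out a library was not run for the same reason. Over 49 recomputed values, 33 moved by less than their counting interval or by less than 1.5 times, 15 moved further and 1 reversed. The counting interval treats contacts as independent, which they are not, so the 33 are no measure of stability. The direction of the net balance held in every setting: a minimum score of 1.5, enhancers, promoters and either block of elements alone, and without LINC00470. The trans balance (19.3%) was 10% at promoters alone, 6.25% in 1 block and 10.1% without the first 5 Mb. With neighbouring contacts of 1 RNA merged within 1 Mb, the net balance of all contacts was 20.5% (28.4% before), that of cis 22.9% (30.2%), and the shared part 20.9% (40.9%). With RNAs listed in both genotypes these were 19.2%, 18.6% and 50.3%. Without the first 5 Mb, a setting added after seeing the data, they were 19.2%, 21.0% and 44.5%. Counting the globin cluster as 1 RNA was added in the same way. Elements with at least 2-fold more and fewer RNAs numbered 84 and 7, 129 and 29 with no minimum, and 17 and 0 with a mean of 4 RNAs or more; with local and cis contacts alone 3 had fewer. The median score difference of shared contacts turned from 0.0783 to -0.248 in trans, which rests on 2 contacts. In windows of 2 Mb the largest net gain was 100, from the smaller window, and several windows inside larger ones with a net gain had a net loss.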
